A study of Mus musculus with 6 samples.

Results

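Matrix metalloproteases (MMPs), ADAM proteases and tissue inhibitors of metalloproteases (TIMPs) were examined in immortalised mouse macrophages, as 10 genes chosen by name and looked up by symbol among the 54532 genes of the deposited tables. The 10 genes were the MMP genes Mmp9, Mmp12, Mmp14 and Mmp19, the ADAM genes Adam8, Adam9, Adam15 and Adam17, and the inhibitor genes Timp1 and Timp2. All 10 were found, and 8 of them reached the level at which a gene was tested. Mmp12 and Mmp14 did not reach it, and their values are given without a test.

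The cells were macrophages grown from mouse bone marrow and made to divide indefinitely with retroviruses carrying the oncogenes v-raf and v-myc. One group came from mice labelled as lacking 4-1BBL (4-1BBL KO, called KO-labelled here), a TNF family ligand encoded by Tnfsf9, and the other from wild-type (WT) mice. Both groups had received IL-4, the cytokine of alternative macrophage activation, at 10 ng/ml for 24 hours, and each is represented by 3 RNA-seq libraries. The labels do not give the strain, sex or age of the mice, nor the number of animals, cultures or immortalised lines behind the 3 libraries of a group, so a p-value here covers no more than the library-to-library spread, which may be technical, and genotype and line cannot be told apart. Levels are FPKM (fragments scaled by exon length in kilobases and by library depth), and they describe cells after IL-4 and not the response to it. The length is that of all annotated exons of a gene together and not of the transcript expressed, so comparisons of level between different genes are approximate.

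Metalloproteases of the MMP and ADAM families use a zinc ion to cut proteins. MMPs are secreted or anchored in the membrane and are best known for cutting extracellular matrix, whereas ADAMs sit in the membrane and release, or shed, the outer parts of cytokines, receptors and adhesion molecules. Most are made as inactive precursors, and TIMPs are secreted proteins that bind the active site of the mature enzyme. Macrophages are a major source of both proteases and inhibitors during inflammation and tissue repair.

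The libraries held 19136299 to 26389529 assigned fragments in KO-labelled cells and 20742680 to 22264705 in WT cells. The 2 groups differed in most expressed genes: of 10843 genes tested in limma (adjusted p under 0.05, Benjamini-Hochberg over all tested genes), 60.8% were called. KO-labelled cells were higher for 30.6% (3321 genes) and lower for 30.2% (3273 genes), and the median log2 fold change was 0.01. Rescaled to TPM, with the minimum and pseudocount kept at 1, the test covered 12936 genes, a different set. It gave 4449 higher and 2916 lower genes and a median of 0.11. Tnfsf9 itself averaged 10.9 ± 0.414 FPKM in KO-labelled and 12.3 ± 2.10 FPKM in WT libraries (SD, n = 3 each), a difference within the spread between libraries (exact two-sided permutation p = 0.4, where 0.1 is the smallest possible). Which part of Tnfsf9 was removed is not stated in the labels, so the transcript level does not check the genotype. The Y-linked gene Ddx3y had 3718 fragments over the KO-labelled libraries and 1 over the WT libraries, so the groups also differ in Y-linked transcripts. All 9 macrophage markers examined were detected in both groups, with summed levels of 1215 to 1279 FPKM in KO-labelled and 2165 to 2217 FPKM in WT libraries. Of the 9, 4 rose and 4 fell: the F4/80 gene Adgre1 rose (268 ± 6.07 FPKM in KO-labelled and 11.8 ± 0.625 FPKM in WT libraries, limma adjusted p = 6.85e-09), Lyz2, the largest part of the sum, fell (484 ± 32.8 and 1207 ± 12.5 FPKM, limma adjusted p = 1.63e-06), and Mertk had 2 fragments in WT libraries.

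Promoter sequences were available for 7 of the 10 genes (RefSeq, GRCm38.p6, from 250 bases before to 50 bases after an annotated start). Those of the 2 inhibitors are shown because these genes moved in opposite directions, and those of Adam8 and Adam15 because both fell. Each is written 5′ to 3′ on the strand of its gene, and capitals mark GC boxes (GGGCGG on either strand), a motif present in 35.6% of the 32817 promoters of the same length. The windows are chr11:118355362-118355661 (minus strand) for Timp2, chrX:20869916-20870215 (plus strand) for Timp1, chr7:139992513-139992812 (minus strand) for Adam8 and chr3:89349979-89350278 (minus strand) for Adam15.
Timp2: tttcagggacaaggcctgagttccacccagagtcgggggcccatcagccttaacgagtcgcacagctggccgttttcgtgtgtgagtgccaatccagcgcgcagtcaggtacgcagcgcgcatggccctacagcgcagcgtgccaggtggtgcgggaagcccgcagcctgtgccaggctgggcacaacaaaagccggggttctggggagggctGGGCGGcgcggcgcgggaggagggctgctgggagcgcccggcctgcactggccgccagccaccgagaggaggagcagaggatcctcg
Timp1: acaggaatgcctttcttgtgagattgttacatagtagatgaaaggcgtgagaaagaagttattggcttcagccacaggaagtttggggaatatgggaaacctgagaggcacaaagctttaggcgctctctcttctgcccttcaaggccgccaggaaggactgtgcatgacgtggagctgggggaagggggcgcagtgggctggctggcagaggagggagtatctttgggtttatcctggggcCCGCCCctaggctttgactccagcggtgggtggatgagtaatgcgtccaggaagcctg
Adam8: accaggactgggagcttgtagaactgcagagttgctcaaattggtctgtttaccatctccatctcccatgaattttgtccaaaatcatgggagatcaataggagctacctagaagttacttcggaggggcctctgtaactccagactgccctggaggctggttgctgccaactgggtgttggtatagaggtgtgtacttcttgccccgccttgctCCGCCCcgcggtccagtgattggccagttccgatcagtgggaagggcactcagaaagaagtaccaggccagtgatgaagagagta
Adam15: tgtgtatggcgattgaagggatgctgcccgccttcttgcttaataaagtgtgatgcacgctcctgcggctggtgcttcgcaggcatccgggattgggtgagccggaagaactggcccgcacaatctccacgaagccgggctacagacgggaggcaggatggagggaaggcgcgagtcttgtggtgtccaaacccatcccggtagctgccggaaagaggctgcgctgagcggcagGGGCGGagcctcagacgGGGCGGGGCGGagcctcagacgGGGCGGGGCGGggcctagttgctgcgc

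The promoters of the 2 inhibitor genes differed in CpG content. The Timp2 window held 25 CpG dinucleotides, more than 81.6% of promoters, and the Timp1 window held 8, more than 51.4% of promoters. Adam15 had 25 CpG dinucleotides and 5 GC boxes, and Adam8 had 6 CpG dinucleotides and 1 GC box. None of the 4 windows contained an AP-1 motif (TGANTCA, in 7.81% of promoters), an E-box (CACGTG, in 7.15%) or a TATA motif (TATAAA, in 13.6%), searched on both strands. In Adam15 each run of 11 capitals holds 2 GC boxes that share 1 base. One of the 2 annotated Mmp12 windows, chr9:7347124-7347423, held an AP-1 motif and a TATA motif.

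**Figure D1:**
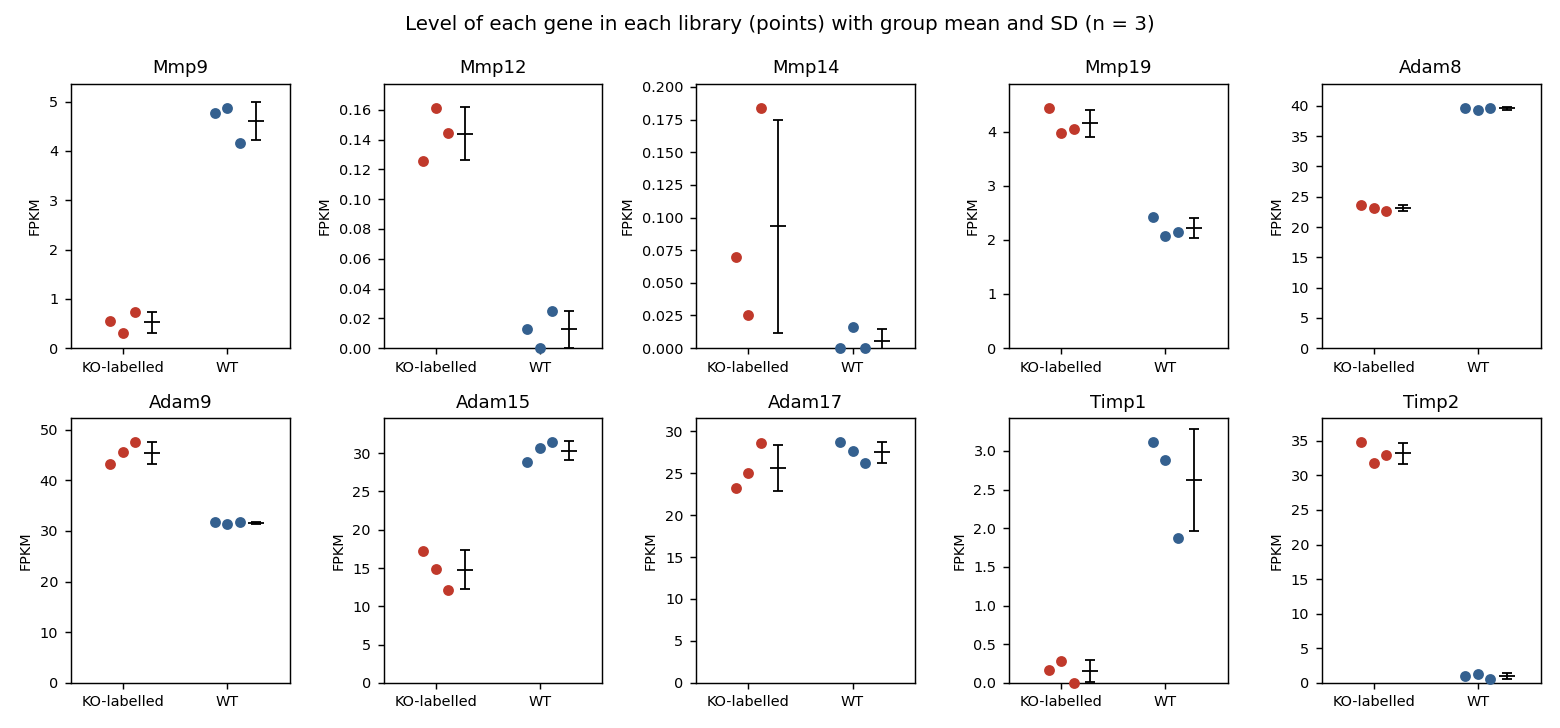
Level of each of the 10 genes in FPKM (vertical axes, each starting at 0) in the 3 KO-labelled and 3 WT libraries, with 1 point per library and the group mean and SD beside it. Timp2 lies at 31.8 to 34.8 FPKM in KO-labelled and at 0.576 to 1.31 FPKM in WT libraries, Mmp9 and Timp1 lie lower in KO-labelled libraries, and the groups overlap only for Adam17.

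Of the 8 genes tested, 3 rose, 4 fell and 1 did not pass in KO-labelled cells, beside 60.8% of all tested genes called. The log2 fold changes below are of FPKM + 1, KO-labelled minus WT, with standard errors and adjusted p from limma (Benjamini-Hochberg over all 10843 genes). The median over the 8 genes was -0.43, beside 0.01 over all tested genes. For 7 of the 8 genes every library of one group lay on one side of the other group, as for 67.4% of all tested genes, and the share of the 8 that differed is read against that background and not as a property of the family.

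Among the secreted MMPs, Mmp9, the gelatinase B gene, fell. Mmp9 (ENSMUSG00000017737) lies on chromosome 2 at 164940780 to 164955850 in mm10. Its level was 0.546, 0.301 and 0.724 FPKM in KO-labelled replicates 1 to 3, against 4.76, 4.88 and 4.16 FPKM in WT replicates 1 to 3. All KO-labelled libraries lay below all WT libraries, and the means, 0.524 ± 0.212 FPKM for KO-labelled and 4.60 ± 0.383 FPKM for WT cells (SD, n = 3 each), gave an 8.79-fold lower level, with a log2 fold change of -1.89 ± 0.13 (SE) and a limma adjusted p of 1.71e-05. The values rest on 121 fragments in KO-labelled and 1046 in WT libraries.

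Mmp19, which encodes a secreted MMP that degrades basement membrane proteins, rose. The gene (ENSMUSG00000025355) is on chromosome 10 at 128790910 to 128800824. Its level was 4.44, 3.97 and 4.04 FPKM in KO-labelled replicates 1 to 3 and 2.42, 2.07 and 2.14 FPKM in WT replicates 1 to 3. The groups did not overlap, and the difference was 1.88-fold, with a log2 fold change of 0.68 ± 0.08 (SE) and a limma adjusted p of 0.000306. The antisense gene Tmem198b covers 22.3% of the exon length of Mmp19 and averaged 0.9 FPKM in KO-labelled and 1.68 FPKM in WT libraries, the opposite direction, and the strand setting of the counting is not given in the sources used here. Mmp9 and Mmp19 thus changed order: the ratio of Mmp9 to Mmp19 was 0.123, 0.0760 and 0.179 in the KO-labelled libraries, against 1.96, 2.35 and 1.95 in the WT libraries.

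Mmp12, the macrophage elastase gene, and Mmp14, which encodes the membrane-anchored protease MT1-MMP, were close to the limit of detection in both groups. Mmp12 (chromosome 9 at 7344381 to 7369499, ENSMUSG00000049723) had 24, 23 and 20 fragments in KO-labelled replicates 1 to 3 and 2, 0 and 4 fragments in WT replicates 1 to 3, or 0.126, 0.161 and 0.144 FPKM and 0.0129, 0 and 0.0248 FPKM. The KO-labelled libraries lay above the WT libraries, with a ratio of fragments per depth of 11.02 (exact 95% interval of the counts 4.81 to 31.1). Mmp14 (chromosome 14 at 54431612 to 54445364, ENSMUSG00000000957) had 11, 3 and 21 fragments in KO-labelled and 0, 2 and 0 fragments in WT replicates 1 to 3, or 0.0699, 0.0256 and 0.184 FPKM and 0, 0.0162 and 0 FPKM, so KO-labelled replicate 3 alone held 21 of the 35 fragments. Its ratio was 17.3 (4.44 to 148). The libraries carry no stated molecular identifiers, so such intervals and floors describe counting error alone.

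The wider MMP family followed the same division between a few expressed and many silent genes. Of 23 MMP genes, 14 had at least 1 fragment in KO-labelled libraries and 7 in WT libraries, and only Mmp9 and Mmp19 were tested. The other 7 of the 14 had no fragment in WT cells. Among these 7, Mmp17 had 4 fragments and Mmp24 had 3, each in 1 KO-labelled library, both named after their values were seen. Over all genes, 15917 to 16570 were above 0 in a KO-labelled library and 15681 to 15853 in a WT library. The share of all genes found in KO-labelled libraries alone was not counted, so the 7 are not read as a property of the family. On chromosome 9 from 7272514 to 7699585 lie 10 MMP genes in a row, among them Mmp12, of which 4 had fragments in KO-labelled and 1 in WT libraries, and 6 had none in any library. The neutrophil collagenase gene Mmp8 had 58 fragments in KO-labelled and 0 in WT libraries, at least 6.41-fold higher when WT is set to a floor of 3 fragments per library, and the collagenase gene Mmp13 had 49 and 0, at least 5.57-fold higher. Mmp2, the gelatinase A gene, had 27 and 31 fragments, a ratio of 0.860 (0.494 to 1.49). Mmp25, the leukolysin gene, had 160 and 0 fragments (at least 17.0-fold higher) and was named after its values were seen.

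Neutrophils store MMP8 and MMP25, and their markers were too low to be tested and differed in direction. The summed level of the 9 neutrophil markers was 1.26 to 1.96 FPKM in KO-labelled and 0.0675 to 0.141 FPKM in WT libraries, and 4 of the 9 had a fragment in KO-labelled and 3 in WT libraries. Most of the sum came from Cxcr2 (126 fragments in KO-labelled and 0 in WT libraries) and S100a8 (33 and 1 fragments). Camp and Ltf (6 and 0 fragments each) were also found in KO-labelled libraries alone. Mpo (0 and 10 fragments) and Elane (0 and 2 fragments) were found in WT libraries alone. The defining markers Ly6g, S100a9 and Ngp had 0 fragments in all 6 libraries. The part of other cells in these MMP counts was not tested, and in bulk RNA fewer cells of a type and less RNA per cell cannot be told apart.

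**Figure D2:**
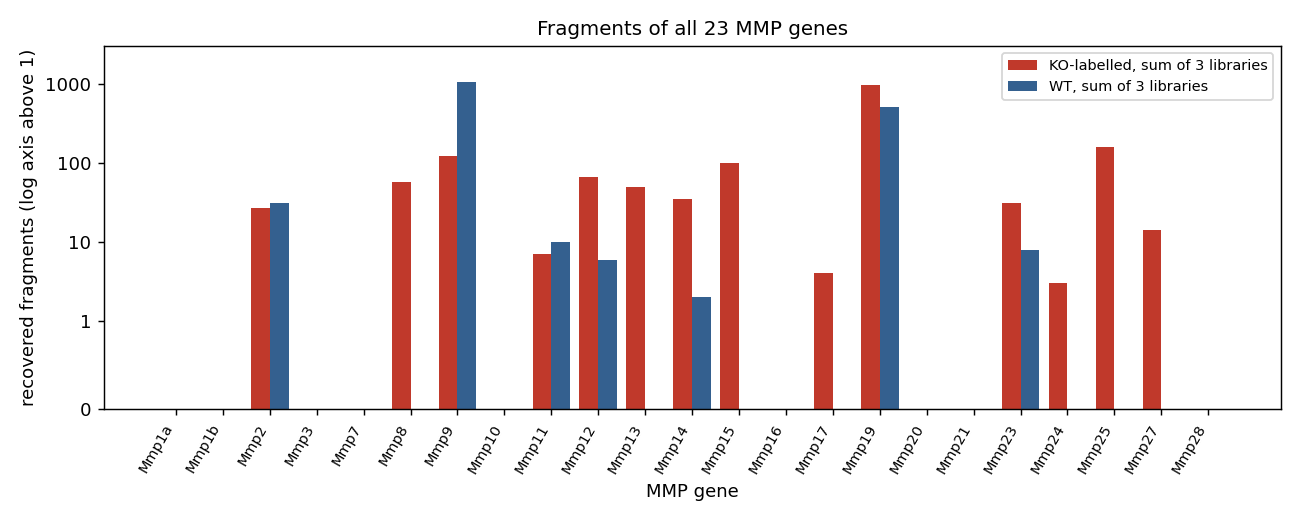
Recovered fragments of all 23 MMP genes (vertical axis, logarithmic above 1), summed over the 3 KO-labelled and over the 3 WT libraries. Mmp9 has 121 fragments in KO-labelled and 1046 in WT libraries, and 7 genes have fragments in KO-labelled libraries alone. Among these are Mmp17 with 4 and Mmp24 with 3 fragments.

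ADAM transcripts were far more abundant than MMP transcripts in both groups. The 4 ADAM genes summed to 107, 109 and 111 FPKM in KO-labelled replicates 1 to 3 and to 129 FPKM in each WT library, and the 4 MMP genes to 5.18, 4.46 and 5.09 FPKM in KO-labelled and 7.20, 6.97 and 6.32 FPKM in WT libraries. Both sums lay lower in every KO-labelled library than in any WT library. Within the ADAMs 1 gene rose, 2 fell and 1 did not pass.

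Adam8, which encodes a leukocyte ADAM that cleaves adhesion molecules, fell. It lies on chromosome 7 at 139978932 to 139992562 (ENSMUSG00000025473). Its level was 23.6, 23.2 and 22.7 FPKM in KO-labelled replicates 1 to 3, against 39.7, 39.4 and 39.7 FPKM in WT replicates 1 to 3. The groups were narrow and did not overlap, a 1.71-fold lower level with a log2 fold change of -0.75 ± 0.04 (SE) and a limma adjusted p of 5.57e-06.

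Adam15, which encodes a membrane-anchored ADAM, fell as well. On chromosome 3 it spans 89338542 to 89349996 (ENSMUSG00000028041). Its level was 17.3, 14.9 and 12.1 FPKM in KO-labelled and 28.9, 30.7 and 31.4 FPKM in WT replicates 1 to 3. The KO-labelled libraries spread more than the WT libraries but stayed below them all. The difference was 2.06-fold, with a 95% interval of the log2 fold change from -1.28 to -0.73 and a limma adjusted p of 0.000278. The antisense gene 4731419I09Rik covers 20.6% of its exon length and had at most 0.188 FPKM in any library.

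Adam9, which encodes a widely expressed sheddase, was the only one of the 4 ADAM genes that rose. On chromosome 8 it spans 24949611 to 25016927 (ENSMUSG00000031555). Its level was 43.1, 45.5 and 47.5 FPKM in KO-labelled and 31.7, 31.3 and 31.7 FPKM in WT replicates 1 to 3. The groups did not overlap, and the 1.44-fold higher level had a log2 fold change of 0.51 ± 0.05 (SE) and a limma adjusted p of 9.54e-05.

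Adam17, which encodes the TNF-converting enzyme TACE, did not pass. The gene is on chromosome 12 at 21323509 to 21373632 (ENSMUSG00000052593). Its level was 23.3, 25.1 and 28.6 FPKM in KO-labelled and 28.7, 27.7 and 26.2 FPKM in WT replicates 1 to 3. KO-labelled replicate 3 lay within the WT range, and the log2 fold change was -0.10, with a 95% interval from -0.29 to 0.09 and a limma adjusted p of 0.308. Without that library the log2 fold change was -0.18 and the limma adjusted p 0.0409 (range over all alternatives 0.0409 to 0.932).

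These changes reordered the 4 ADAM genes by level, a set that leaves out the more abundant Adam10 (49.03 FPKM in KO-labelled and 59.6 FPKM in WT libraries). In KO-labelled cells Adam9 made up 40.2% to 42.8% of the summed level of the 4. Adam17 and Adam8 followed with overlapping levels, and Adam15 was lowest. In WT cells Adam8 led the 4 with 30.5% to 30.8%, Adam9 and Adam15 followed with overlapping levels, and Adam17 was lowest at 20.3% to 22.2%. The ratio of Adam9 to Adam8 was 1.83, 1.96 and 2.09 in KO-labelled and 0.797, 0.795 and 0.799 in WT replicates 1 to 3.

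In the wider ADAM family, 6 of 34 genes were tested, of which 2 rose and 3 fell, beside 60.8% of all tested genes called. Adam10, the main sheddase of Notch receptors, was the most abundant and fell 1.22-fold, with 49.03 ± 2.05 FPKM in KO-labelled and 59.6 ± 1.06 FPKM in WT libraries (SD, n = 3 each; limma adjusted p = 0.00154). Adam3, whose product is known from sperm, rose from a low level, with 3.11 ± 0.183 FPKM in KO-labelled and 0.218 ± 0.113 FPKM in WT libraries (limma adjusted p = 1.18e-05). Of the 19 ADAMTS genes, relatives that are secreted and cut matrix proteoglycans, only Adamts10 was tested, and it did not pass (3.56 ± 0.535 FPKM in KO-labelled and 3.02 ± 0.119 FPKM in WT libraries, limma adjusted p = 0.170). Without KO-labelled replicate 3 it was called. Adam23, named after its values were seen, had 617 fragments in KO-labelled and 0 in WT libraries, at least 66.8-fold higher on the same floor. Adamts1, also named after its values were seen, went the other way, with 3 fragments in KO-labelled and 225 in WT libraries, a 76.0-fold lower count per depth (exact 95% interval 25.7 to 371).

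The inhibitor genes showed the largest change of the set. Timp2, whose product inhibits MMPs and also takes part in activating pro-MMP2 on the cell surface, rose. On chromosome 11 the gene spans 118301069 to 118355740 (ENSMUSG00000017466). Its level was 34.8, 31.8 and 32.9 FPKM in KO-labelled replicates 1 to 3, against 1.06, 1.31 and 0.576 FPKM in WT replicates 1 to 3. Every KO-labelled library lay far above every WT library, and the means of 33.2 ± 1.48 and 0.982 ± 0.373 FPKM (SD, n = 3 each) differed 33.8-fold, with a log2 fold change of 4.12 ± 0.14 (SE) and a limma adjusted p of 5.97e-07. By size of change Timp2 ranked 98 among the 10843 tested genes.

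Timp1, the inhibitor gene that inflammatory signals induce in many cell types, moved the other way. It lies on chromosome X at 20870166 to 20874735 (ENSMUSG00000001131). Its level was 0.171, 0.286 and 0 FPKM in KO-labelled replicates 1 to 3 and 3.11, 2.88 and 1.87 FPKM in WT replicates 1 to 3. The groups did not overlap, and limma gave a log2 fold change of -1.64 ± 0.17 (SE) at an adjusted p of 0.000178. The transcript is short and the counts are low, with 9 fragments in KO-labelled and 149 in WT libraries, a 16.8-fold lower count per depth (exact 95% interval 8.60 to 37.4).

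No other inhibitor was expressed at a level that could be tested. Timp3, whose product is the TIMP that inhibits ADAM17, had 0 fragments in all 6 libraries, which allows at most 0.0192 FPKM in any library. Reck, a membrane-anchored MMP inhibitor, had 6 fragments in KO-labelled and 0 in WT libraries. The TIMP pool therefore consisted mostly of different genes in the 2 groups. Timp2 made up nearly all of it in KO-labelled cells, whereas Timp1 exceeded Timp2 in WT cells. Ratios of Timp2 to Timp1 were 204 and 111 in KO-labelled replicates 1 and 2, on only 4 and 5 Timp1 fragments. KO-labelled replicate 3 had no Timp1, and the ratios in WT replicates 1 to 3 were 0.340, 0.456 and 0.308.

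Fibroblasts and other stromal cells also express TIMP genes, and their markers were checked. Of 8 fibroblast markers, 6 had 0 fragments in all libraries, among them Col1a1, Col1a2, Col3a1 and Dcn, and the summed level of the 8 was 0.0572 to 0.126 FPKM in KO-labelled and 0.0410 to 0.150 FPKM in WT libraries.

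**Figure D3:**
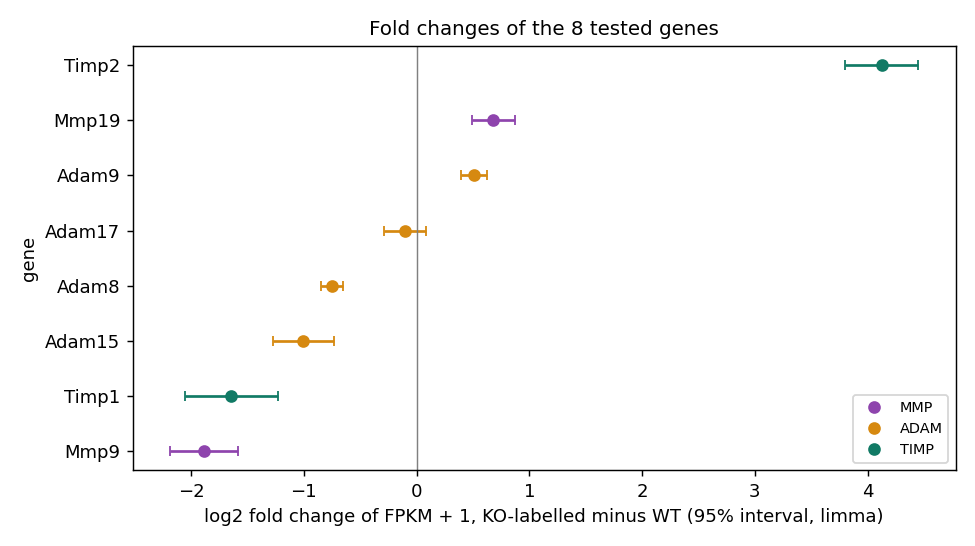
Log2 fold change of FPKM + 1, KO-labelled minus WT, with its 95% interval from limma, for the 8 tested genes (horizontal axis), coloured by family. Timp2 stands at 4.12, the other genes lie between -1.89 and 0.68, and the interval of Adam17 includes 0.

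Setting proteases against inhibitors, the summed TIMP level was higher and the summed levels of the 4 MMP and 4 ADAM genes were lower in KO-labelled cells. Over all 23 MMP genes the sum was 6.64 to 6.995 FPKM in KO-labelled and 6.46 to 7.52 FPKM in WT libraries, and the groups overlapped. The 2 TIMP genes summed to 34.9, 32.1 and 32.9 FPKM in KO-labelled replicates 1 to 3, against 4.17, 4.19 and 2.45 FPKM in WT replicates 1 to 3. The ratio of the 4 MMP genes to the 2 TIMP genes was 0.148, 0.139 and 0.155 in KO-labelled libraries and 1.73, 1.66 and 2.58 in WT libraries. MMP transcript was thus below TIMP transcript in every KO-labelled library and above it in every WT library, a difference of -3.73 in the mean log2 ratio. No test was made of this ratio, since it is a score over genes chosen by name.

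With the ADAM genes included, protease transcript exceeded TIMP transcript in both groups. The ratio of all 8 proteases to the 2 inhibitors was 3.22, 3.52 and 3.53 in KO-labelled libraries and 32.7, 32.5 and 55.3 in WT libraries. The groups did not overlap, and WT replicate 3, which had the lowest TIMP levels, stood apart from the other WT libraries.

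The direction depended on which protease was set against which inhibitor. The ratio of Mmp9 to Timp1, which fell together, was 3.20 and 1.05 in KO-labelled replicates 1 and 2, could not be formed in replicate 3, and was 1.53, 1.69 and 2.22 in WT replicates 1 to 3, so the groups overlapped. Adam17 exceeded Timp1 136-fold and 87.7-fold in KO-labelled replicates 1 and 2, against 9.21-fold, 9.63-fold and 14.0-fold in WT replicates 1 to 3. Timp1 had only 4 and 5 fragments in KO-labelled replicates 1 and 2, so the ratios to Timp1 there are imprecise. Mmp14, whose product forms a complex with TIMP-2 in the activation of pro-MMP2, was at most 0.00560 of the Timp2 level in KO-labelled and at most 0.0123 in WT libraries. The WT value rests on 2 Mmp14 fragments in WT replicate 2.

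**Figure D4:**
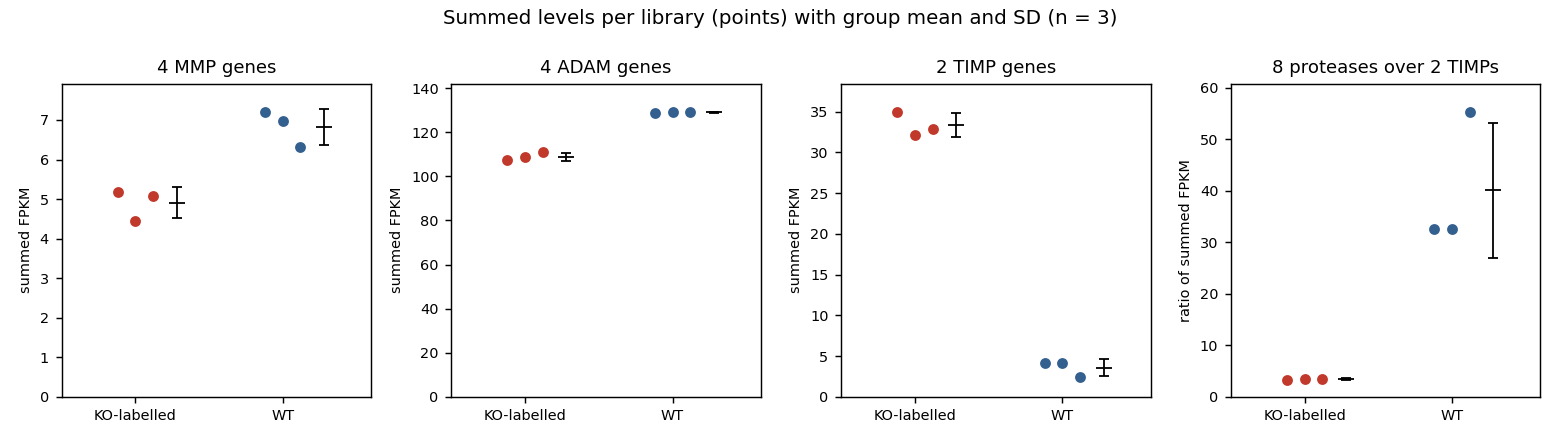
Summed FPKM of the 4 MMP, the 4 ADAM and the 2 TIMP genes and the ratio of the 8 proteases to the 2 TIMPs (vertical axes starting at 0), with 1 point per library and the group mean and SD (n = 3). The TIMP sum is 32.1 to 34.9 FPKM in KO-labelled and 2.45 to 4.19 FPKM in WT libraries, and the ratio is 3.22 to 3.53 in KO-labelled and 32.5 to 55.3 in WT libraries.

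Genes that mature the proteases or bring sheddases to the cell surface split evenly. Of 13 listed, 8 were tested, of which 2 rose and 2 fell, beside 60.8% of all tested genes called. The remaining 4 did not pass, and the median log2 fold change of the 8 was -0.02. Rhbdf2, which encodes the iRhom2 cofactor that carries ADAM17 to the surface of macrophages, rose to 11.6 ± 0.310 FPKM in KO-labelled cells, against 8.79 ± 0.130 FPKM in WT cells (limma adjusted p = 0.000565), whereas its relative Rhbdf1 did not pass, at 2.80 ± 0.242 FPKM in KO-labelled and 2.71 ± 0.573 FPKM in WT cells (limma adjusted p = 0.780). Furin, the proprotein convertase that removes the inhibitory prodomain of ADAMs and MT-MMPs, did not pass either, at 10.1 ± 0.534 FPKM in KO-labelled and 11.1 ± 0.363 FPKM in WT cells (limma adjusted p = 0.0926). The related convertase gene Pcsk7 fell, with 8.28 ± 0.388 FPKM in KO-labelled and 11.6 ± 0.389 FPKM in WT cells (limma adjusted p = 0.000493). Of the tetraspanin genes whose products bind ADAM10, Tspan5 rose 1.47-fold and Tspan14 fell 1.39-fold (limma adjusted p of at most 0.00158).

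The plasminogen system, which activates several pro-MMPs through plasmin, was lower in most of its tested genes. Of 10 listed genes 6 were tested, of which 4 fell and 2 rose, with a median log2 fold change of -1.11, beside 60.8% of all tested genes called. One rise, that of Anxa2, named after its values were seen, was small (log2 fold change 0.13, limma adjusted p = 0.0252). Anxa2 lost its call without any 1 library other than KO-labelled replicate 3 and with the replicate block (limma adjusted p of 0.0613 to 0.0854). The other rise, that of Plgrkt, also named after its values were seen, was 2.21-fold. Plgrkt had 16.0 ± 1.90 FPKM in KO-labelled and 7.22 ± 0.308 FPKM in WT libraries (limma adjusted p = 5.35e-05). Plau, which encodes the plasminogen activator urokinase, fell 12.1-fold, with 1.98 ± 0.0966 FPKM in KO-labelled and 24.0 ± 0.928 FPKM in WT libraries (limma adjusted p = 4.29e-08). Its receptor gene Plaur fell 1.80-fold (limma adjusted p = 0.000995). S100a10, which encodes a plasminogen-binding subunit at the cell surface, fell to 71.8 ± 1.62 FPKM in KO-labelled cells, against 267 ± 4.66 FPKM in WT cells (limma adjusted p = 5.47e-08).

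Proteins known to be shed by ADAM10 or ADAM17 moved in both directions at the transcript level. Of 24 listed genes 13 were tested, of which 7 rose and 4 fell, beside 30.6% higher and 30.2% lower of all tested genes. Tnfrsf1a, named after its values were seen, was among the 4 and lost its call without WT replicate 2 (limma adjusted p = 0.0663) and in TPM (limma adjusted p = 0.104). The other 2 did not pass, and the median log2 fold change of the 13 was 0.41. Tnf, the substrate that gave ADAM17 its older name, fell 9.93-fold, with 7.70 ± 0.702 FPKM in KO-labelled and 76.5 ± 1.04 FPKM in WT libraries. Its receptor gene Tnfrsf1b rose 11.2-fold, with 52.7 ± 4.55 and 4.71 ± 0.0521 FPKM, and Mertk, a receptor for dying cells, had 1197 fragments in KO-labelled and 2 in WT libraries. These 3 had limma adjusted p of at most 1.02e-06. Il6ra, the IL-6 receptor gene, rose 1.42-fold (limma adjusted p = 0.00217) and Csf1r, the receptor gene of the macrophage growth factor CSF-1, fell 1.73-fold (limma adjusted p = 2.66e-06). Shedding itself was not measured.

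Matrix proteins, the classical MMP substrates, were hardly expressed by these cells. Of 14 listed genes only the laminin chain gene Lamc1 was tested, and it rose 2.16-fold, with 23.8 ± 0.677 FPKM in KO-labelled and 11.03 ± 0.525 FPKM in WT libraries (limma adjusted p = 4.25e-06).

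Transcription factors of a list made mostly of AP-1 and Ets genes, families known to act on MMP and TIMP promoters, also split. Of 17 listed genes 14 were tested, of which 5 rose, 5 fell and 4 did not pass, beside 60.8% of all tested genes called. Fosl1 fell to 0.507 ± 0.278 FPKM in KO-labelled cells, against 10.4 ± 1.01 FPKM in WT cells, although Ccdc85b (22.5 FPKM in KO-labelled and 42.5 FPKM in WT libraries) overlaps 57.2% of its exon length on the other strand. Nfatc1, which is on the list but belongs to neither family and drives osteoclast genes, fell 4.04-fold. Batf3 rose to 25.0 ± 1.11 FPKM in KO-labelled cells, against 0.111 ± 0.192 FPKM in WT cells, and these 3 had limma adjusted p of at most 3.76e-06.

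Mmp9 is also a gene of osteoclasts, bone-resorbing cells of the macrophage lineage, and most tested markers of that cell type were lower as well. Of 8 osteoclast markers 5 were tested, of which 4 fell, among them the acid phosphatase gene Acp5 (named with Ctsk and Calcr after their values were seen, 2.79 ± 0.260 FPKM in KO-labelled and 50.8 ± 0.745 FPKM in WT libraries, limma adjusted p = 2.60e-08), beside 30.2% of all tested genes lower, and 1 rose, Ctsk (80.5 ± 1.89 FPKM in KO-labelled and 69.5 ± 4.79 FPKM in WT libraries, limma adjusted p = 0.0162). The summed level of the 8 markers was 86.8 to 90.7 FPKM in KO-labelled and 153 to 162 FPKM in WT libraries. The defining marker Calcr had 0 fragments in KO-labelled and 2 in WT libraries, and the part of osteoclast-like cells in the Mmp9 difference was not tested.

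The lysosomal cathepsins, proteases that do not depend on zinc, were higher in KO-labelled cells. Of 13 listed genes 11 were tested, of which 9 rose and none fell. The median log2 fold change of the 11 was 0.48, beside 30.6% of all tested genes higher. Ctsc rose 7.20-fold, with 35.2 ± 2.04 FPKM in KO-labelled and 4.88 ± 0.0971 FPKM in WT libraries, Ctsh rose 12.9-fold and Ctso rose 4.03-fold (limma adjusted p of at most 1.33e-05). Of 7 cathepsin inhibitor genes only 3 were tested, of which 1 rose and 2 fell, beside 60.8% of all tested genes called. Cst7 fell 6.51-fold and Cst3, the cystatin C gene, fell 1.74-fold (limma adjusted p of at most 6.73e-05), while Cstb rose slightly (limma adjusted p = 0.0110).

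**Figure D5:**
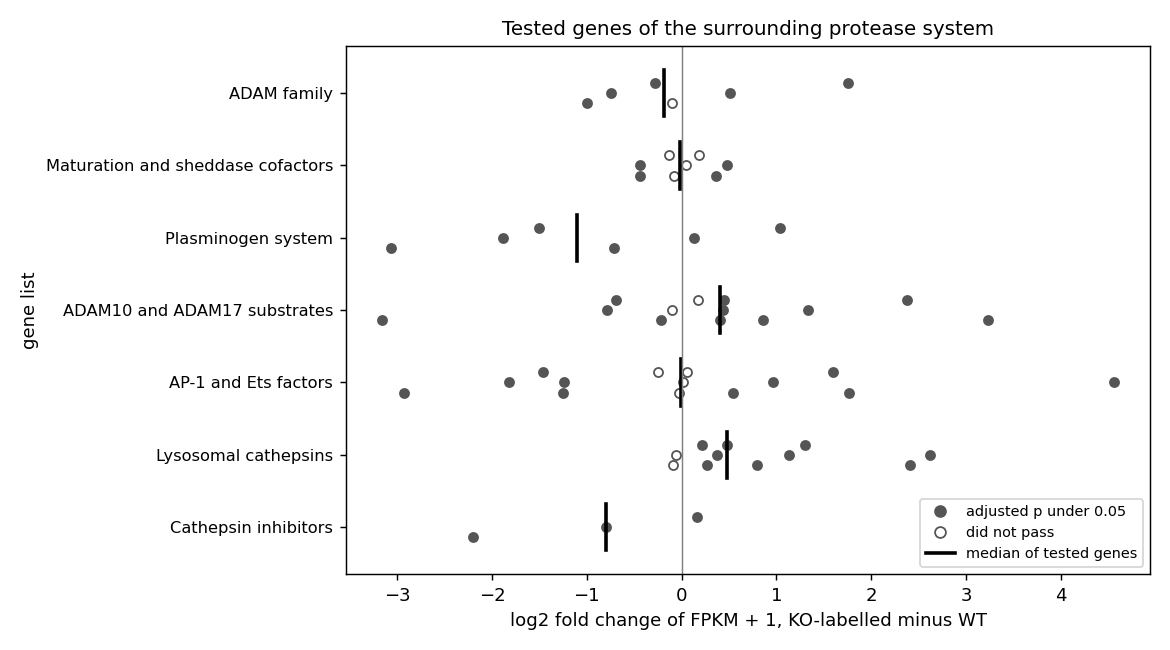
Log2 fold change of FPKM + 1, KO-labelled minus WT (horizontal axis), of the tested genes of 7 lists, with 1 point per gene, filled where the limma adjusted p was under 0.05, and a bar at the median. Plasminogen system genes have a median of -1.11 and cathepsin genes one of 0.48, while the ADAM family has -0.19 and the cofactor list -0.02.

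The genes most like Timp2 and Mmp9 in pattern were found by the root mean square difference of log2(FPKM + 1), each gene centred on its WT mean, over the 6 libraries, a measure that mostly reflects the size of the group difference. Nearest to Timp2, the gene with the largest rise, were Mapkapk3 (difference 0.159), Rpl21-ps8 (0.172), a ribosomal protein pseudogene whose reads may belong to near-identical copies, and Maf (0.180), with 18.9 FPKM in KO-labelled and 0.124 FPKM in WT libraries for Mapkapk3 and 15.2 and 0.00195 FPKM for Maf. Nearest to Mmp9, the gene with the largest fall on this scale (Timp1 fell further with a pseudocount of 0.1, in TPM and with voom), were Gmpr (0.0866), Alad (0.0948) and Rilpl1 (0.0985), with 4.38 and 18.3 FPKM for Gmpr.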

How the data were processed

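Poly(A) RNA was sequenced in 6 libraries, 3 KO-labelled and 3 WT, per the labels' protocols. The authors deposited FPKM per Ensembl gene. The submitters' processing notes name mm10, the aligner HISAT2 (2.0.5) and the counter featureCounts (1.5.0-p3). The annotation release and strand setting were not given in the sources used here. Symbols and positions came from GENCODE M21, on the same build. Fragments were recovered from FPKM times exon length: 97.9% to 98.0% of a library's values up to 200 fragments were whole within 0.1. The test was limma 3.58.1 (R 4.3.3, trend option) on log2(FPKM + 1) for genes averaging 1 FPKM or more over the 6 libraries. The scale understates changes of low genes. Genes were called at an adjusted p under 0.05. Folds are ratios of mean FPKM. The limma step was run on simulated data with 200 changed genes, far fewer than were called here, so that run does not measure its error rate in these data. BLAST+ 2.17.0+ found no near-identical copy (95% identity over 80% of the shorter transcript) for any of the 10 genes.

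The members and gene lists were chosen with earlier results of these data known. Named are the 10 genes, the 3 largest changes past the threshold in each list and 16 genes whatever their values, except where marked, and 1 gene that the rule names is not reported here. Replicate numbers did not pair the libraries (correlations of same-numbered deviations -0.03, 0.05 and -0.03). Alternatives covered pseudocount, filter, TPM, quantile normalization, voom on fragments, the replicate block and each library left out.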

Additional observations from a re-analysis of the deposited data

How the results depend on the processing

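Of 101 results of the 8 tested genes under 13 alternatives, 100 kept direction and side of the threshold. The exception was Adam17, called without KO replicate 3. Size depended on the scale for low genes: the log2 fold change was -2.97 for Mmp9, -3.61 for Timp1 and 5.01 for Timp2 with a pseudocount of 0.1, and -3.16, -4.33 and 5.20 with voom on recovered fragments. With a mean of at least 5 FPKM only 5 of the 10 genes could be tested, because Mmp9, Mmp19 and Timp1 are below that level. Of the 5, 4 were called, beside 4710 of the 7290 genes tested in that setting. Without a filter 7 of 14 MMP genes were called, beside 7414 of the 20848 genes tested in that setting. Mmp12 was among the 7 (log2 fold change 0.18, limma adjusted p = 0.00431) but not Mmp14 (0.12, limma adjusted p = 0.172). Rescaling to TPM, with the minimum and pseudocount kept at 1, left the calls of the 10 genes as they were. FPKM values summed to 286101 to 312801 per library, so 1 TPM is a lower level than 1 FPKM. In TPM 12936 genes were thus tested in place of 10843, with a median of 0.11 and 4449 higher and 2916 lower genes. The replicate block, which shares only a number across groups, gave 6194 called genes against 6594 and 7 of the 10 genes, as without it. Leaving out 1 library in turn gave 5835 to 6408 called genes, 7 to 8 of the 10 genes, a mean log2 ratio of MMPs to TIMPs from -3.84 to -3.53 and a Tnfsf9 log2 fold change from -0.26 to -0.03. Rhbdf1, which did not pass in any, changed sign to -0.0102 under quantile normalization and ranged from -0.0535 (without WT replicate 1) to 0.163 with 1 library left out, and the cause was not tested. Cstb lost its call without WT replicate 2 (limma adjusted p = 0.0511), and Junb and Adamts10 were called without KO replicate 3 (limma adjusted p = 0.0351 and 0.0263). Depth limits Mmp12, Mmp14 and Timp1 most.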
